A study of Mus musculus with 18 samples.

Results

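Tumor cells of the mouse pancreatic tumor line 6694c2 with a knockout of Kdm3a, clone KO1, were compared with cells of the same line labelled WT. The comparison uses 6 of the 18 libraries of the series, 3 of KO1 and 3 of WT, chosen by the line, genotype and clone in their labels. Where a further difference was tested, 3 libraries of the other knockout clone of the line, KO2, and 9 libraries of line 6419c5 (Kdm3a KO1, Kdm3a KO2 and WT, 3 each) were added. In every group the strain is given as C57BL/6, and untreated cells were sorted out of tumors that had been implanted under the skin. The labels state neither the marker used for the sort, nor the sex or age of the host mice, nor how the gene was disrupted. Nor do they say whether replicate libraries stem from different mice, so p-values measure the spread between these libraries, which may be technical. KO1 is 1 clone: an effect of the knockout and any other property of that clone cannot be told apart within this comparison.

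Kdm3a encodes a nuclear demethylase that removes methyl groups from lysine 9 of histone H3, a mark linked to silent chromatin, and its own transcript is induced in hypoxia. Many genes on which this comparison turns respond to interferon: receptor-bound JAK kinases activate STAT transcription factors, which bind DNA elements in the promoters of guanylate-binding proteins, immunity-related GTPases and antiviral effectors. The MHC class I genes respond to the coactivator Nlrc5 and the MHC class II genes to the coactivator Ciita, both of which act through a promoter module that includes a CCAAT element. Class I molecules display peptides from inside a cell to CD8 T cells; class II molecules are a property of professional antigen-presenting cells such as macrophages and dendritic cells, and can be induced in other cells by interferon gamma.

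Promoters of 5 genes that were far higher in KO1 are shown because they hold the DNA elements through which such genes are known to be controlled. Each window runs from 250 bases before to 50 bases after a RefSeq transcript start in GRCm38.p6, is written along the strand of the gene and holds 300 bases. Capitals mark AANNGAAA (the core letters that interferon regulatory factors recognise), TTCNNNGAA (the STAT dimer element) or CCAAT, each found on either strand. The letters AANNGAAA were chosen after counts for a longer form of that element had been seen.
Gbp2: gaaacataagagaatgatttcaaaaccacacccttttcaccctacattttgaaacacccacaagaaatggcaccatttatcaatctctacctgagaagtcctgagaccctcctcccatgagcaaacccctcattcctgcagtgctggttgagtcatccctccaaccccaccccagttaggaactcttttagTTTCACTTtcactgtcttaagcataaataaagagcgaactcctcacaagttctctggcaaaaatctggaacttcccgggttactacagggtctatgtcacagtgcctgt
Igtp: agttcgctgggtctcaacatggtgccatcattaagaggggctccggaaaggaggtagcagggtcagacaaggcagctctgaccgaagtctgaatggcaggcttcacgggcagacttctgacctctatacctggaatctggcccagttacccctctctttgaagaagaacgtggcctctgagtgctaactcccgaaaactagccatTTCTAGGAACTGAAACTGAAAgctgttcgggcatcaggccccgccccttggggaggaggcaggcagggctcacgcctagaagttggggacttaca
B2m: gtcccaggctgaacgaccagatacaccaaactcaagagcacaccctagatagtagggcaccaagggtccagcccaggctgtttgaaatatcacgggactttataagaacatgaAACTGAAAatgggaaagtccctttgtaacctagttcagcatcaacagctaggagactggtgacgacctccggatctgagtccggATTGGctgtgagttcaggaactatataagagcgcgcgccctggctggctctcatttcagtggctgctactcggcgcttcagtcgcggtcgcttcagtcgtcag
H2-Aa: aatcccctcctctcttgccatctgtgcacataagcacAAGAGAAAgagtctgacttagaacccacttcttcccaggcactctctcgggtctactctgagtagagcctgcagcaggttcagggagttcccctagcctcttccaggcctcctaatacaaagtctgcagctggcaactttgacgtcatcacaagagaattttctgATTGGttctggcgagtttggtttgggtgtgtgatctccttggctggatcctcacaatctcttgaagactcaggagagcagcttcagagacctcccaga
H2-DMb1: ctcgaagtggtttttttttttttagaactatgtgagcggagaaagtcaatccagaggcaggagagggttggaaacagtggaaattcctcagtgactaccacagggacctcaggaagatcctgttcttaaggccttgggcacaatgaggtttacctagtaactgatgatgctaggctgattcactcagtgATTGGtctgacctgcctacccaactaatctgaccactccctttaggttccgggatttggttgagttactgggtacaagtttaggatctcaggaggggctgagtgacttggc

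The Gbp2 window lies at chr3:142620413-142620712 on the plus strand and has AANNGAAA on the opposite strand, written TTTCACTT here, starting 59 bases before the start. Igtp (chr11:58199306-58199605, plus) holds AACTGAAA beginning 38 and again 32 bases before the start and the STAT element TTCTAGGAA beginning 45 bases before it; these runs overlap at their ends and read as a single stretch of capitals. B2m (chr2:122147437-122147736, plus) carries AACTGAAA from 137 bases and an inverted CCAAT from 53 bases upstream. Both class II windows, H2-Aa (chr17:34287774-34288073, minus) and H2-DMb1 (chr17:34152941-34153240, plus), hold an inverted CCAAT, from 48 and 61 bases upstream, and H2-Aa also holds AAGAGAAA from 213 bases upstream. Over 27025 mouse gene symbols with such a window, 26.7% held AANNGAAA, 9.55% held TTCNNNGAA and 41.1% held CCAAT, counting both strands. Among 10033 tested genes with a window the shares were 21.3%, 8.37% and 42.7%, in the same order. Of 12 tested guanylate-binding proteins and immunity-related GTPases with a window, 11 (91.7%) held AANNGAAA, 6 (50%) TTCNNNGAA and 4 (33.3%) CCAAT. Of 25 antiviral effectors 19 (76%) held AANNGAAA, 9 (36%) TTCNNNGAA and 10 (40%) CCAAT. Of 19 MHC class I genes 11 (57.9%) held AANNGAAA, 2 (10.5%) TTCNNNGAA and 14 (73.7%) CCAAT. Of 8 MHC class II genes 3 (37.5%) held AANNGAAA, 1 (12.5%) TTCNNNGAA and 6 (75%) CCAAT. A match is a run of letters in this window and no measure of binding.

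Expression was given in TPM, a relative transcript abundance corrected for length that sums to the same total in every library, with no read counts, so the depth behind a value is unknown. Differences were computed on log2(TPM + 1), which understates the change of genes near 0, as KO1 minus WT, and tested with limma in a model of all 6 groups, with p-values adjusted by the Benjamini-Hochberg method. A gene is said to have risen, fallen or changed where its adjusted p was under 0.05. Of 24493 genes in the table, 13197 averaged 1 TPM or more in these 6 libraries and were tested. In KO1, 2056 of them (15.6%) rose and 971 (7.36%) fell, 22.9% in all, and 1024 rises against 175 falls reached 1 on the log2 scale. The median difference over all tested genes was 0.12. With the libraries scaled by median of ratios, which moved that median to −0.02, 1420 genes rose and 1673 fell, so the balance of rises and falls depended on the scaling. The abundant entry Mir6236 alone took 6.04% to 7.27% of the TPM in KO1 libraries and 8.57% to 17.4% in WT libraries; its part in the shift is measured by the fit without it, with 1598 rises and 1426 falls. A gene near 0 in WT passes the filter only through KO1, so the counts for gene lists below describe these libraries. Counts against WT are to be read against the shares for all tested genes, of which 15.6% rose and 7.36% fell.

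Sorted cells of both groups expressed epithelial tumor genes, and KO1 libraries also held more RNA of other cell types. Krt8, an epithelial keratin, had 2356, 2139 and 1932 TPM in KO1 libraries, against 3154, 3125 and 2504 TPM in WT libraries. Over 12 pancreatic tumor epithelial markers the summed level was 6411, 6319.6 and 5787 TPM in KO1 libraries, against 8461, 8928 and 7067 TPM in WT libraries. Of the 10 tested, 5 fell and 0 rose. Acinar cell markers summed to 36.3, 21.9 and 27.02 TPM in KO1 libraries, against 39.2, 42.6 and 24.8 TPM in WT libraries. Only 1 of them reached the filter, and Cela2a, Pnlip and Ptf1a were listed at 0 in all 6 libraries. Summed over 22 macrophage markers, KO1 libraries had 10953, 6199 and 7227 TPM, KO2 libraries 979.8, 982 and 6233 TPM and WT libraries 1424, 3829 and 609.9 TPM. All 3 KO1 libraries were thus rich in macrophage RNA, as was KO2 replicate 3, whereas KO2 replicates 1 and 2 lay within the range of WT. From bulk RNA, fewer cells of a type and less RNA per cell cannot be told apart. Neutrophil markers, 16 genes, summed to 271, 386 and 427 TPM in KO1 libraries, against 26.8, 32.4 and 36.01 TPM in WT libraries. The corresponding sums of 18 T and NK cell markers were 55.8, 40.04 and 39.8 TPM in KO1 and 3.70, 5.08 and 4.15 TPM in WT libraries. Endothelial markers, 14 genes, stood out in KO1 replicate 1 with 441 TPM, against 103 to 110.2 TPM in the other KO1 libraries and 98.0 to 103 TPM in WT libraries. An alternative fit took the mean level of 10 macrophage genes in each library as a covariate; in it 1286 genes rose and 544 fell. Where that fit ended a call or moved a value by over 1.5 times, its value is given beside the result.

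**Figure D1:**
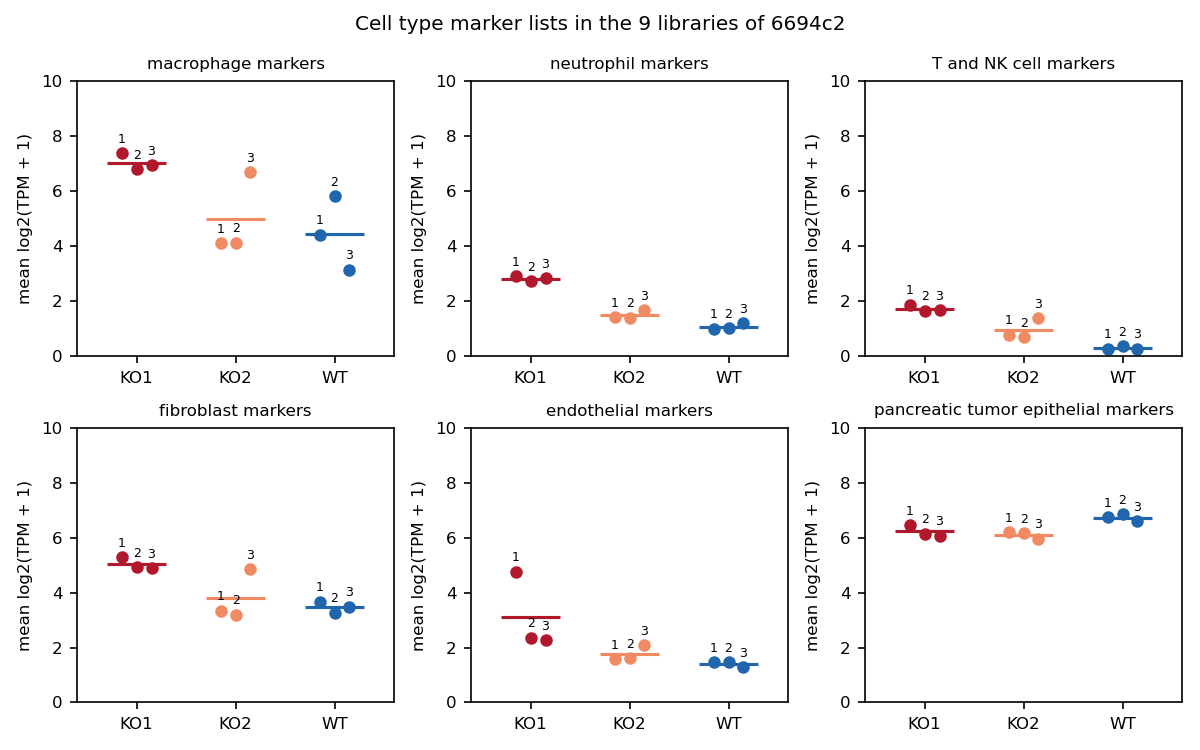
Mean log2(TPM + 1) over the genes of 6 marker lists in each library of 6694c2 (points, numbered by replicate), with the group mean as a line. Macrophage markers are high in the 3 KO1 libraries and in KO2 replicate 3, neutrophil and T and NK cell markers are higher in KO1 than in the other groups, endothelial markers stand out in KO1 replicate 1, and tumor epithelial markers lie between 6.08 and 6.47 in KO1 and between 6.59 and 6.86 in WT.

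Kdm3a (chr6:71588972-71632990, minus strand) had 26.2, 26.4 and 29.8 TPM in KO1 libraries, 28.8, 30.2 and 25.2 TPM in KO2 libraries and 39.9, 38.9 and 67.6 TPM in WT libraries. Every KO1 library lay below every WT library, yet the transcript was far from lost, and WT replicate 3 was above the other WT libraries. Kdm3a fell by 0.76 ± 0.21 on the log2 scale (SE, adjusted p = 0.0165). Without WT replicate 3 the difference was -0.51 (adjusted p = 0.0641), and without KO1 replicate 1 it was -0.73 (adjusted p = 0.0517). It was -0.48 (adjusted p = 0.191) with the macrophage covariate, and did not pass in a fit of the 6 libraries compared, at -0.76 (adjusted p = 0.074). A level over a whole transcript does not show whether a coding change is present. A list of H3K9 demethylases, methyltransferases and their partners had 19 tested genes, Kdm3a among them, of which 0 rose and 2 fell in the limma test, with a median difference of 0.024. Trim28, a corepressor that recruits an H3K9 methyltransferase, was the other fall, with 185, 190.5 and 173 TPM in KO1 libraries, against 213, 225 and 206 TPM in WT libraries. Its difference of -0.23 ± 0.077 (SE, adjusted p = 0.045) did not pass without KO1 replicate 1, 2 or 3 or WT replicate 1 or 2, with values of -0.26 to -0.19 (adjusted p of 0.0569 to 0.155). In the fit with the macrophage level as a covariate 1 of the 19 rose and 0 fell. Trim28 did not pass there, at -0.14 (adjusted p = 0.306), or at a mean of at least 5 TPM, in a fit of the 9 libraries of 6694c2, in a fit of the 6 libraries compared or with no mean-variance trend, at -0.23 (adjusted p of 0.0512 to 0.175). Kdm3b, a close relative of Kdm3a, had 27.9, 26.4 and 25.4 TPM in KO1 libraries, against 24.5, 24.9 and 28.9 TPM in WT libraries. Its groups overlapped, and the difference was 0.027 ± 0.089 (SE, adjusted p = 0.869).

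Interferon signal transducers were higher in KO1, among them the coactivators of both MHC classes. Of 19 receptors and transducers tested, 12 rose (15.6% of all tested genes rose) and 0 fell, with a median of 0.80, against 0.12 over all genes. Nlrc5, the coactivator of MHC class I, had 21.9, 20.3 and 20.4 TPM in KO1 libraries, 28.7, 30.8 and 28.5 TPM in KO2 libraries and 0.872, 2.09 and 1.01 TPM in WT libraries. Both clones lay far above WT without overlap, and KO1 lay below KO2. Nlrc5 rose by 3.27 ± 0.17 on the log2 scale (SE, adjusted p = 1.83e-08). For Ciita, the coactivator of MHC class II, the values were 12.7, 9.03 and 8.01 TPM in KO1 libraries, 11.8, 11.1 and 16.1 TPM in KO2 libraries and 0.457, 0.536 and 0.167 TPM in WT libraries. Ciita was under 1 TPM in each WT library and above 8 TPM in each KO1 library, and rose by 2.96 ± 0.27 on the log2 scale (SE, adjusted p = 3.18e-06). Usp18, a feedback inhibitor of interferon receptor signaling, rose by 2.58 ± 0.13 on the log2 scale (SE, adjusted p = 1.64e-08).

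Most of the receptor and kinase genes did not pass the test. Ifngr1, a chain of the interferon gamma receptor, had 97.9, 80.2 and 85.8 TPM in KO1 libraries, against 71.01, 60.7 and 75.7 TPM in WT libraries, a difference of 0.34 ± 0.14 (SE, adjusted p = 0.0863). Jak1, a kinase bound to that receptor, had a difference of 0.26 ± 0.12 (SE, adjusted p = 0.144), and 0.39 (adjusted p = 0.0275) without WT replicate 3. Ifnar2, a chain of the type I receptor, passed with a difference of 0.41 ± 0.14 (SE, adjusted p = 0.0431), but with any 1 of the 6 libraries left out it did not, with values of 0.32 to 0.47 (adjusted p of 0.057 to 0.164). Ifnar2 was 0.19 (adjusted p = 0.414) with the macrophage covariate, and did not pass with no filter on low values, with median-of-ratios scaling, with quantile normalization, without the 20 most abundant genes, without Mir6236, in a fit of the 6 libraries compared or with no mean-variance trend, at 0.27 to 0.41 (adjusted p of 0.0508 to 0.159).

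All 18 tested guanylate-binding proteins and immunity-related GTPases, which coat and disrupt the vacuoles of intracellular pathogens, rose in KO1. Their median difference was 3.16. Iigp1 had 74.1, 109 and 108 TPM in KO1 libraries, 229.99, 251 and 229 TPM in KO2 libraries and 1.83, 3.44 and 6.39 TPM in WT libraries. The 3 KO1 values were far above the WT values and below the KO2 values, and Iigp1 rose by 4.41 ± 0.47 on the log2 scale (SE, adjusted p = 1.16e-05). Tgtp2, whose near-identical neighbour Tgtp1 could share its reads, had 76.3, 102 and 111 TPM in KO1 libraries, against 2.71, 3.12 and 5.47 TPM in WT libraries. Tgtp2 rose by 4.38 ± 0.36 on the log2 scale (SE, adjusted p = 9.82e-07), again with no overlap. Gbp2, whose promoter is printed above, had 143, 187 and 177 TPM in KO1 libraries, 338, 348 and 360.01 TPM in KO2 libraries and 13.1, 26.1 and 16.8 TPM in WT libraries. Gbp2 rose by 3.16 ± 0.26 on the log2 scale (SE, adjusted p = 1.15e-06). Igtp, the other GTPase with a printed promoter, had 95.7, 113 and 114 TPM in KO1 libraries, 176, 169.98 and 175 TPM in KO2 libraries and 8.45, 14.3 and 8.84 TPM in WT libraries. Igtp rose by 3.27 ± 0.19 on the log2 scale (SE, adjusted p = 4.05e-08), and its 3 KO1 values lay between those of WT and KO2. Gvin1, a very large GTPase with close copies in the genome, rose by 3.65 ± 0.41 on the log2 scale (SE, adjusted p = 2.03e-05). The smallest change of the list was that of 9930111J21Rik1, which rose by 0.69 ± 0.18 on the log2 scale (SE, adjusted p = 0.0111); the difference was 0.52 (adjusted p = 0.0552) without KO1 replicate 1. It did not pass in a fit of the 9 libraries of 6694c2 or in a fit of the 6 libraries compared, at 0.69 (adjusted p of 0.0516 to 0.11). Gbp10 and Gbp11 did not reach the filter; Gbp10 had 0.780, 1.51 and 0.961 TPM in KO1 libraries, against 0, 0.0247 and 0.111 TPM in WT libraries.

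**Figure D2:**
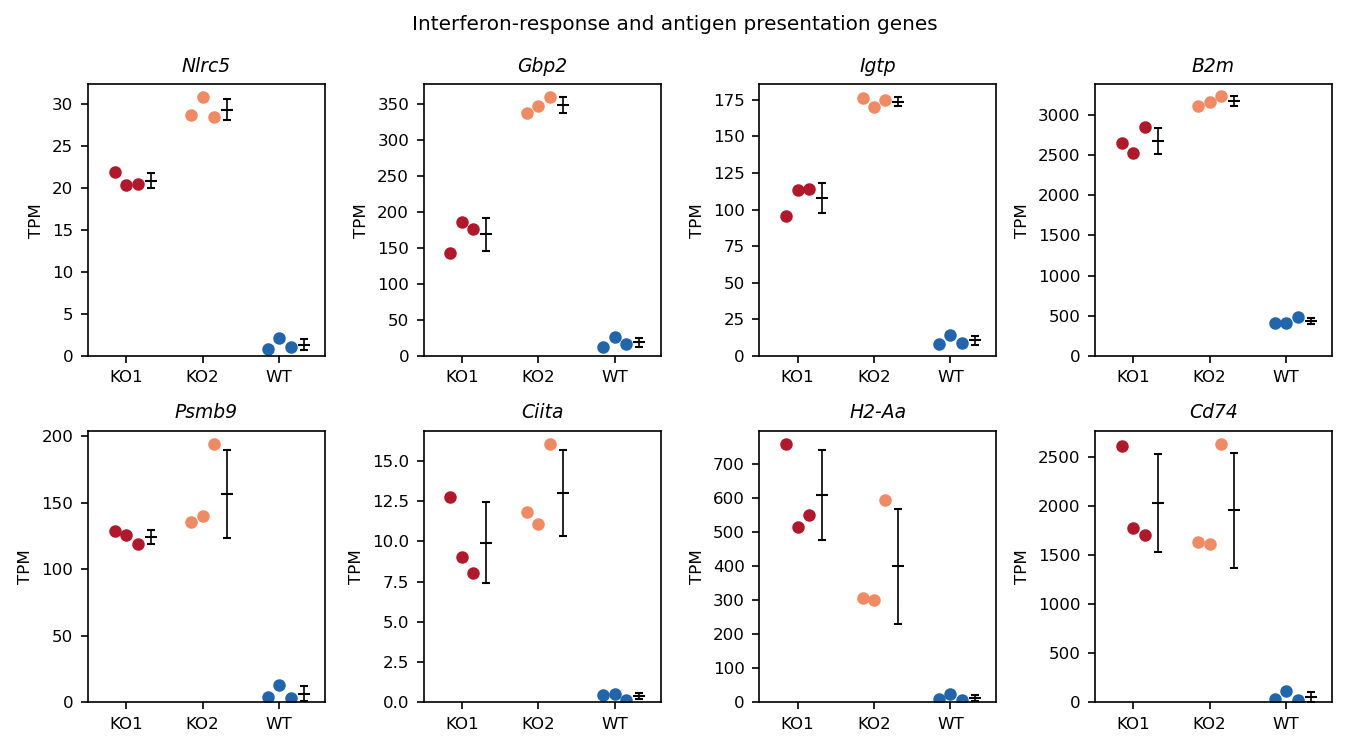
TPM of 8 interferon-response and antigen presentation genes in each library (points, replicates 1 to 3 from left to right) with the mean ± SD of each group beside them (n = 3). Every KO1 library lies above every WT library; KO1 lies below KO2 for Nlrc5, Gbp2, Igtp, B2m and Psmb9.

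Antiviral effectors, which block steps of virus replication, were higher in KO1. Of 30 tested, 28 rose and 0 fell, with a median of 1.77. Rtp4 had 21.9, 17.7 and 19.6 TPM in KO1 libraries, against 1.87, 3.28 and 3.77 TPM in WT libraries. It rose by 2.41 ± 0.24 on the log2 scale (SE, adjusted p = 6.13e-06), without overlap. Ifit1, which binds viral RNA, had 23.7, 25.7 and 21.9 TPM in KO1 libraries, against 3.27, 2.68 and 6.97 TPM in WT libraries, and rose by 2.31 ± 0.23 on the log2 scale (SE, adjusted p = 6.13e-06). Ifit3 has a close copy, Ifit3b, and rose by 2.28 ± 0.31 on the log2 scale (SE, adjusted p = 0.000157). Trim30a, with 8.23, 6.35 and 7.19 TPM in KO1 libraries, against 0.642, 1.35 and 0.531 TPM in WT libraries, rose by 2.18 ± 0.32 on the log2 scale (SE, adjusted p = 0.000275). Its difference was 1.34 (adjusted p = 0.00276) with the macrophage covariate.

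Cytosolic sensors of nucleic acids showed the same direction, with 9 of 14 tested genes higher and 0 lower (median 1.11). Zbp1, a sensor of Z-form nucleic acid that can start necroptosis, had 60.7, 61.4 and 60.8 TPM in KO1 libraries, 53.8, 63.97 and 74.3 TPM in KO2 libraries and 6.27, 8.05 and 3.68 TPM in WT libraries. KO1 and KO2 values interleaved, far above WT, and Zbp1 rose by 3.20 ± 0.28 on the log2 scale (SE, adjusted p = 1.81e-06). Aim2, which senses DNA and starts pyroptosis, had 16.6, 20.05 and 23.5 TPM in KO1 libraries, 7.70, 8.68 and 7.51 TPM in KO2 libraries and 2.80, 1.93 and 5.15 TPM in WT libraries. Here KO1 was above KO2 as well as WT, and Aim2 rose by 2.35 ± 0.28 on the log2 scale (SE, adjusted p = 3.73e-05). Genes of necroptosis and pyroptosis rose in 13 of 17 cases, with 0 falls and a median of 0.99; 7 rose and 1 fell with the macrophage covariate. Casp1, the inflammasome protease, had 33.7, 36.3 and 45.8 TPM in KO1 libraries, 37.01, 39.6 and 38.6 TPM in KO2 libraries and 1.77, 0.773 and 4.07 TPM in WT libraries. Its KO1 and KO2 values overlapped with each other and not with WT, and Casp1 rose by 3.75 ± 0.46 on the log2 scale (SE, adjusted p = 5.41e-05). Casp4, which recognizes bacterial lipopolysaccharide in mouse cells as caspase-11, rose by 2.93 ± 0.25 on the log2 scale (SE, adjusted p = 1.81e-06).

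The peptide-loading machinery of MHC class I was higher from the proteasome to the cell surface. Of 23 tested genes 20 rose and 0 fell (median 1.75). B2m, the invariant light chain, had 2652, 2526 and 2855 TPM in KO1 libraries, 3117, 3159 and 3238 TPM in KO2 libraries and 416, 408 and 479 TPM in WT libraries. Among the most abundant transcripts of the cells, B2m rose by 2.62 ± 0.19 on the log2 scale (SE, adjusted p = 2.38e-07). H2-K1, a classical heavy chain, had 2381, 2038 and 2159 TPM in KO1 libraries, against 273, 464 and 232 TPM in WT libraries. H2-K1 rose by 2.82 ± 0.21 on the log2 scale (SE, adjusted p = 3.61e-07). Psmb9, a catalytic subunit of the immunoproteasome, had 129, 125 and 119 TPM in KO1 libraries, against 4.07, 12.8 and 3.20 TPM in WT libraries. WT replicate 2, the WT library richest in macrophage markers, was the highest of its group for Psmb9, and still far below KO1; Psmb9 rose by 4.24 ± 0.33 on the log2 scale (SE, adjusted p = 6.65e-07). Tap1, which pumps peptides into the endoplasmic reticulum, rose by 3.71 ± 0.25 on the log2 scale (SE, adjusted p = 1.42e-07). H2-Q7 had 79.2, 68.03 and 73.4 TPM in KO1 libraries, against 2.39, 1.66 and 2.06 TPM in WT libraries, and rose by 4.62 ± 0.23 on the log2 scale (SE, adjusted p = 1.29e-08), although the H2-Q genes are near copies and their reads could be split among them.

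MHC class II genes had some of the largest differences of all, with 10 of 11 tested genes higher, 0 lower and a median of 4.197. Cd74, the invariant chain that guards the class II groove, had 2609, 1775 and 1706 TPM in KO1 libraries, 1632, 1608 and 2633 TPM in KO2 libraries and 34.7, 117 and 23.7 TPM in WT libraries. KO1 replicate 1 and KO2 replicate 3 were the highest, WT replicate 2 was the highest of the WT libraries, and the groups of KO1 and WT did not overlap. Cd74 rose by 5.40 ± 0.51 on the log2 scale (SE, adjusted p = 4.74e-06). H2-Aa, an alpha chain of the class II molecule, had 759, 516 and 551 TPM in KO1 libraries, 305, 299.7 and 593 TPM in KO2 libraries and 8.94, 23.4 and 5.81 TPM in WT libraries. H2-Aa rose by 5.67 ± 0.55 on the log2 scale (SE, adjusted p = 6.13e-06). H2-DMb1, part of the exchange factor that loads class II, had 133, 103 and 108 TPM in KO1 libraries, 129, 119 and 149.8 TPM in KO2 libraries and 5.65, 6.36 and 3.09 TPM in WT libraries, and rose by 4.30 ± 0.25 on the log2 scale (SE, adjusted p = 4.05e-08). H2-Ab1 and H2-Eb1, the beta chains, rose by 5.43 and 5.62. Lgmn, a lysosomal protease, did not pass the test, with 282, 219.7 and 234 TPM in KO1 libraries, against 88.3, 155 and 63.5 TPM in WT libraries.

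Macrophages express class II genes and interferon targets, so these results were set beside the macrophage signal. KO2 replicates 1 and 2, whose macrophage marker sums lay within the WT range, had 1632 and 1608 TPM of Cd74 and 305 and 299.7 TPM of H2-Aa, each far above every WT library. With the mean level of 10 macrophage genes as a covariate, Cd74 was higher in KO1 by 4.04, Ciita by 2.46, Psmb9 by 3.53 and Iigp1 by 5.03 on the log2 scale, and each passed the test. In that fit 17 of 18 guanylate-binding proteins and immunity-related GTPases, 19 of 23 class I genes and 10 of 11 class II genes rose. No KO1 library was poor in macrophage RNA, so what the other cells contributed within KO1 was not tested beyond this fit. Neutrophil and T and NK cell sums moved in the same direction, and their part in these results was not tested.

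**Figure D3:**
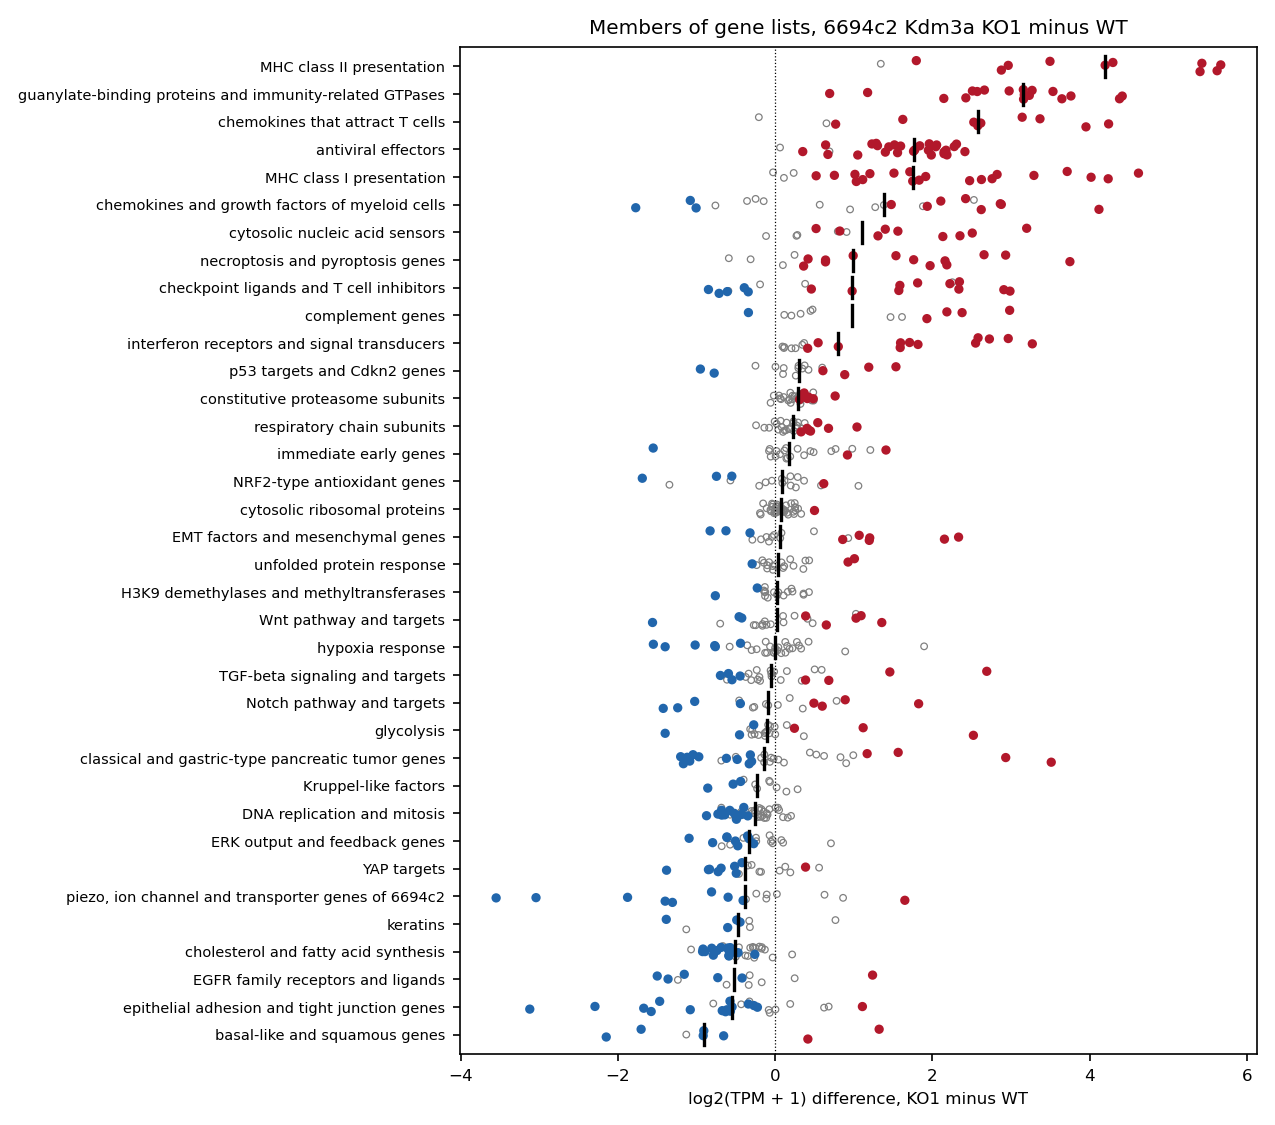
Difference KO1 minus WT on log2(TPM + 1) for each tested member of 36 gene lists, ordered by their median (black bar); red points rose, blue points fell, and open points did not pass the test at an adjusted p of 0.05. Antigen presentation and interferon lists lie at the top with medians up to 4.197, and epithelial, EGFR and cholesterol lists at the bottom with medians down to −0.91.

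Chemokines that draw T cells were higher, with 9 of 11 tested genes up and 0 down (median 2.58). Cxcl9, an interferon gamma target that recruits activated T cells through Cxcr3, had 38.1, 50.4 and 51.2 TPM in KO1 libraries, 139, 142 and 127 TPM in KO2 libraries and 0.696, 1.93 and 2.13 TPM in WT libraries. KO2 was the highest group and KO1 the next, and Cxcl9 rose by 4.24 ± 0.39 on the log2 scale (SE, adjusted p = 3.13e-06). Cxcl10, a ligand of the same receptor, rose by 3.37 ± 0.27 on the log2 scale (SE, adjusted p = 9.82e-07). Ccl5 had 30.7, 25.3 and 28.9 TPM in KO1 libraries, against 0.414, 3.74 and 0 TPM in WT libraries, with WT replicate 2 above the other WT libraries, and rose by 3.95 ± 0.57 on the log2 scale (SE, adjusted p = 0.000222). Ccl21a rose by 3.14 ± 0.58 on the log2 scale (SE, adjusted p = 0.00143), with 45.3, 6.51 and 6.73 TPM in KO1 libraries, of which replicate 1 stood far above the others, against 0.579, 1.17 and 0.140 TPM in WT libraries.

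Chemokines and growth factors of myeloid cells were mixed, with 8 of 21 higher and 3 lower, and 5 higher without KO1 replicate 1; 3 rose and 1 fell with the macrophage covariate. Ccl8, a monocyte chemokine, had 1090.2, 867 and 1130.1 TPM in KO1 libraries, 40.02, 39.3 and 789 TPM in KO2 libraries and 72.9, 237 and 10.6 TPM in WT libraries. It was highest in the libraries with high macrophage sums, and its difference was 4.12 ± 1.22 (SE, adjusted p = 0.025). Without KO1 replicate 1, 2 or 3 or WT replicate 3 that call was lost, with values of 2.95 to 4.24 (adjusted p of 0.0527 to 0.101). Ccl8 was 0.33 (adjusted p = 0.46) with the macrophage covariate, and did not pass in a fit of the 9 libraries of 6694c2, at 4.12 (adjusted p = 0.0632). Csf2, which encodes GM-CSF, moved the other way, with 1.54, 3.73 and 3.78 TPM in KO1 libraries, against 15.8, 8.80 and 13.00 TPM in WT libraries, and fell by 1.77 ± 0.40 on the log2 scale (SE, adjusted p = 0.0054). Csf2 was -0.97 (adjusted p = 0.115) with the macrophage covariate and did not pass. Lif, a cytokine of the interleukin 6 family, fell by 1.08 ± 0.18 on the log2 scale (SE, adjusted p = 0.000591).

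Among checkpoint ligands and T cell inhibitors 10 of 19 tested genes rose and 5 fell; 3 fell without KO1 replicate 3 and 2 with the macrophage covariate. Ido1, which degrades tryptophan, had 9.83, 23.6 and 23.02 TPM in KO1 libraries, 10.96, 11.98 and 9.07 TPM in KO2 libraries and 0.959, 2.67 and 1.11 TPM in WT libraries. Ido1 rose by 2.91 ± 0.31 on the log2 scale (SE, adjusted p = 1.3e-05), with KO1 replicate 1 the lowest of its group. Cd274, which encodes PD-L1, had 14.7, 21.3 and 20.1 TPM in KO1 libraries, against 2.86, 3.92 and 2.82 TPM in WT libraries, and rose by 2.22 ± 0.20 on the log2 scale (SE, adjusted p = 2.27e-06). Arg1, an arginase of suppressive macrophages, had 245, 397 and 434 TPM in KO1 libraries, 48.2, 46.96 and 179.9 TPM in KO2 libraries and 46.7, 76.97 and 22.04 TPM in WT libraries. Arg1 rose by 2.99 ± 0.59 on the log2 scale (SE, adjusted p = 0.00236). The adenosine-producing Nt5e and the prostaglandin synthase Ptges were among those lower, by differences of -0.85 ± 0.19 (SE, adjusted p = 0.00564) and -0.71 ± 0.084 (SE, adjusted p = 3.46e-05). Arg1 was 1.31 (adjusted p = 0.0251) with the macrophage covariate. Nt5e was -0.54 (adjusted p = 0.106) there, which did not pass, nor did it pass in a fit of the 6 libraries compared, at -0.85 (adjusted p = 0.0723).

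Genes of alternatively activated macrophages included the largest rise of the comparison. Retnla, a secreted protein induced by interleukin 4, had 525, 336 and 403 TPM in KO1 libraries, 21.9, 23.8 and 302 TPM in KO2 libraries and 1.69, 2.38 and 1.48 TPM in WT libraries. All 3 KO1 libraries were above 300 TPM and all WT libraries under 3 TPM, while KO2 was high in replicate 3 alone; Retnla rose by 7.20 ± 0.89 on the log2 scale (SE, adjusted p = 5.6e-05). Chil3, a chitinase-like protein of such macrophages, had 63.05, 115 and 129 TPM in KO1 libraries, 17.9, 17.6 and 34.4 TPM in KO2 libraries and 1.12, 0.596 and 1.80 TPM in WT libraries, and rose by 5.55 ± 0.35 on the log2 scale (SE, adjusted p = 9.64e-08). Chil4, a near copy of Chil3, had 115, 1916 and 1856 TPM in KO1 libraries, 341, 342 and 329 TPM in KO2 libraries and 19.00, 20.2 and 19.3 TPM in WT libraries. KO1 replicate 1 was far below its group, unlike for Retnla, and Chil4 rose by 5.18 ± 0.97 on the log2 scale (SE, adjusted p = 0.00161). Mgl2, a lectin of macrophages and dendritic cells, had 63.4, 64.8 and 67.8 TPM in KO1 libraries, 4.49, 5.04 and 36.8 TPM in KO2 libraries and 1.02, 3.64 and 1.01 TPM in WT libraries. Mgl2 rose by 4.64 ± 0.75 on the log2 scale (SE, adjusted p = 0.000574). Of the 12 genes on this list 7 rose and 0 fell (median 2.69). In the fit with the macrophage covariate 5 rose and 3 fell; Retnla was 4.75 (adjusted p = 0.00013) and Mgl2 2.45 (adjusted p = 0.00129).

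Retnla did not follow the macrophage sum across groups. KO2 replicates 1 and 2 had 979.8 and 982 TPM of macrophage markers and 21.9 and 23.8 TPM of Retnla, whereas WT replicate 2 had 3829 TPM of macrophage markers and 2.38 TPM of Retnla. Rnase2a and Ear2, eosinophil-associated ribonucleases, were also among the largest rises. Rnase2a had 37.8, 62.8 and 65.2 TPM in KO1 libraries and 1.51, 1.44 and 10.2 TPM in KO2 libraries, and was listed at 0 in the 3 WT libraries. Ear2 had 66.4, 25.2 and 25.97 TPM in KO1 libraries, 2.29, 2.27 and 20.2 TPM in KO2 libraries and 0.254, 1.27 and 0.317 TPM in WT libraries, and rose by 4.55 ± 0.72 on the log2 scale (SE, adjusted p = 0.000443). With the covariate Ear2 was 2.82 (adjusted p = 0.00941).

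Broad macrophage markers rose with less certainty. Of 22 macrophage markers 16 rose and 0 fell, with a median of 2.85, but 4 rose without KO1 replicate 1, 3 without WT replicate 3, and 8 or 9 without KO1 replicate 2, KO1 replicate 3 or WT replicate 1. Without WT replicate 2, the WT library with the most macrophage RNA, 20 rose. Lyz2, macrophage lysozyme, had 3595, 1419 and 1764 TPM in KO1 libraries, against 265, 630.4 and 65.2 TPM in WT libraries. WT libraries spread widely, and the difference of 3.22 ± 0.87 (SE, adjusted p = 0.0157) did not pass without KO1 replicate 1 or WT replicate 3, with values of 2.34 and 2.83 (adjusted p of 0.0646 to 0.068). Mpeg1, a pore-forming protein of macrophages, had 139, 68.6 and 67.1 TPM in KO1 libraries, against 4.76, 9.97 and 3.001 TPM in WT libraries, and rose by 3.79 ± 0.55 on the log2 scale (SE, adjusted p = 0.000226). The macrophage covariate, which holds part of these genes, left 3 rises and 1 fall, with Mpeg1 at 2.15 (adjusted p = 5.34e-05) and Lyz2 at 0.53 (adjusted p = 0.144).

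Neutrophil markers rose in 9 of 10 tested cases and fell in 0 (median 2.82), and Ly6g, Elane, Mpo, Ngp and Camp were listed at 0 in the 3 WT libraries and reached at most 2.71 TPM in KO1 libraries, for Ngp in replicate 1. S100a9, an abundant neutrophil protein, had 38.4, 98.6 and 98.97 TPM in KO1 libraries, 8.66, 7.70 and 11.9 TPM in KO2 libraries and 2.57, 5.40 and 4.85 TPM in WT libraries. KO1 was above both other groups, and S100a9 rose by 3.84 ± 0.56 on the log2 scale (SE, adjusted p = 0.000249). Il1b, which encodes interleukin 1 beta, had 82.1, 54.9 and 68.9 TPM in KO1 libraries, 12.3, 13.8 and 16.8 TPM in KO2 libraries and 6.75, 6.32 and 6.58 TPM in WT libraries. With KO1 far above the other groups, Il1b rose by 3.19 ± 0.24 on the log2 scale (SE, adjusted p = 5.2e-07). Mmp9 rose by 3.23 ± 0.35 on the log2 scale (SE, adjusted p = 1.56e-05).

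Lymphocyte genes were present at low levels. Of 10 tested T and NK cell markers 9 rose and 0 fell (median 1.84). Gzma, a granzyme of killer cells, had 5.48, 4.43 and 4.51 TPM in KO1 libraries and 0.746, 0.451 and 0.879 TPM in KO2 libraries, and was listed at 0 in WT. Cd2 had 12.5, 4.94 and 4.63 TPM in KO1 libraries, against 0.336, 0.231 and 0 TPM in WT libraries, and rose by 2.70 ± 0.51 on the log2 scale (SE, adjusted p = 0.00171). Levels of these markers were low, and none of them had a mean of 5 TPM over the 6 libraries. Jchain, an antibody component of plasma cells, had 17.4, 10.8 and 7.82 TPM in KO1 libraries, against 0.0687, 0 and 0.425 TPM in WT libraries, and rose by 3.43 ± 0.43 on the log2 scale (SE, adjusted p = 6.21e-05). All 3 tested B cell markers rose, as did 4 of 6 dendritic cell markers, with 2 rises without KO1 replicate 1 or WT replicate 1. B cell markers summed to 36.9, 17.5 and 13.3 TPM in KO1 libraries, against 1.21, 1.05 and 1.19 TPM in WT libraries. The B cell markers tested could thus pass the filter only through KO1, and their count is no evidence of a rise. T and NK cell markers summed to 3.70 to 5.08 TPM in WT libraries, so most of those tested also passed the filter only through KO1. Their count is likewise no evidence of a rise. Cd2 was 1.58 (adjusted p = 0.046) with the macrophage covariate, and 1 dendritic cell marker rose.

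Fibroblast and endothelial genes were higher with different patterns over the KO1 libraries. Of 18 tested fibroblast markers 14 rose and 0 fell (median 1.89), with 9 rises without KO1 replicate 1 or WT replicate 2. Dcn, a matrix proteoglycan, had 44.1, 45.5 and 45.4 TPM in KO1 libraries, 4.33, 4.32 and 20.04 TPM in KO2 libraries and 3.69, 3.22 and 4.21 TPM in WT libraries. The KO1 libraries were close together and above KO2 replicates 1 and 2 and WT, and Dcn rose by 3.29 ± 0.39 on the log2 scale (SE, adjusted p = 3.28e-05). Of 14 endothelial markers 9 rose and 1 fell. Plvap, a marker of fenestrated endothelium, had 58.7, 8.91 and 10.8 TPM in KO1 libraries, against 1.85, 1.52 and 0.803 TPM in WT libraries, so KO1 replicate 1 set the mean; Plvap rose by 3.02 ± 0.51 on the log2 scale (SE, adjusted p = 0.000812). Flt1, a receptor of the vascular endothelial growth factor family, had 46.8, 53.8 and 49.5 TPM in KO1 libraries, against 76.01, 75.9 and 86.99 TPM in WT libraries, and fell by 0.66 ± 0.15 on the log2 scale (SE, adjusted p = 0.00622). Erythroid genes were lower in KO1, with 2 of 4 tested markers down and 0 up. Hbb-bt, an adult beta globin, had 12.3, 18.3 and 9.50 TPM in KO1 libraries, against 32.1, 65.7 and 72.8 TPM in WT libraries, a difference of -1.97 ± 0.52 (SE, adjusted p = 0.0146). Without KO1 replicate 3 or WT replicate 3 that difference did not pass, with values of -1.77 and -1.76 (adjusted p of 0.0517 to 0.0591), and no erythroid marker passed; 1 passed without KO1 replicate 2 or WT replicate 2. Of 3 adipocyte markers 1 rose and 1 fell, with the fall lost without KO1 replicate 2 or 3 or any WT library and 2 falls without KO1 replicate 1. Skeletal muscle markers, 4 tested, and the 1 acinar marker tested had medians of 0.77 and −0.30 and held no call. In the fit with the macrophage covariate 6 fibroblast and 3 endothelial markers rose, and no erythroid or adipocyte marker passed. Flt1 was -0.39 (adjusted p = 0.118) and Hbb-bt -1.90 (adjusted p = 0.0795) there, and neither passed.

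Piezo2, Clic6 and Cldn6 were among the largest falls. Piezo2, a mechanically gated cation channel, had 2.76, 3.05 and 2.31 TPM in KO1 libraries, 0.661, 0.776 and 1.20 TPM in KO2 libraries and 37.5, 34.3 and 58.4 TPM in WT libraries. KO1 was slightly above KO2 and far below WT, and Piezo2 fell by 3.55 ± 0.19 on the log2 scale (SE, adjusted p = 1.83e-08). Clic6, a chloride channel-like protein, had 2.72, 2.15 and 1.83 TPM in KO1 libraries, 0.561, 0.673 and 0.750 TPM in KO2 libraries and 31.4, 23.6 and 22.3 TPM in WT libraries, and fell by 3.04 ± 0.17 on the log2 scale (SE, adjusted p = 2.54e-08). Cldn6, an embryonic tight junction claudin, had 0.321, 0 and 0.345 TPM in KO1 libraries, 1.39, 1.81 and 0.820 TPM in KO2 libraries and 15.1, 10.7 and 5.22 TPM in WT libraries. Cldn6 was near 0 in KO1, spread widely within WT, and fell by 3.12 ± 0.30 on the log2 scale (SE, adjusted p = 4.7e-06). Ube2e2, a ubiquitin-conjugating enzyme, had 1.28, 0.847 and 0.825 TPM in KO1 libraries, against 16.1, 11.7 and 17.8 TPM in WT libraries, and fell by 3.02 ± 0.23 on the log2 scale (SE, adjusted p = 4.26e-07). The zinc finger factor Sall1 had 0.173, 0.0136 and 0.0991 TPM in KO1 libraries, against 4.26, 6.00 and 7.80 TPM in WT libraries, and fell by 2.65 ± 0.18 on the log2 scale (SE, adjusted p = 1.52e-07). Tdrkh, a germline protein of the piRNA pathway, had 0.744, 0.454 and 0.723 TPM in KO1 libraries, 4.81, 4.21 and 3.87 TPM in KO2 libraries and 11.2, 7.78 and 10.3 TPM in WT libraries, with KO2 between the other groups; Tdrkh fell by 2.70 ± 0.17 on the log2 scale (SE, adjusted p = 7.81e-08). Kctd15, Cacna2d1, Auts2, Atp9a, Rab38 and Cplx2 fell by 2.31 to 2.85. Entries for the microRNA genes Mir5103 and Mir7237 were also among the largest falls. Mir7237 was -2.51 (adjusted p = 0.0839) with the macrophage covariate and did not pass.

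Ion channels and transporters of 6694c2 were a list drawn up from these samples, so its counts are no independent evidence. Of 16 tested 8 fell and 1 rose. Ano1, a calcium-activated chloride channel, had 112, 121 and 106 TPM in KO1 libraries, against 208, 183 and 205 TPM in WT libraries, and fell by 0.81 ± 0.085 on the log2 scale (SE, adjusted p = 1.17e-05). Slco3a1, an organic anion transporter, had 9.97, 3.32 and 4.08 TPM in KO1 libraries, 0.562, 0.292 and 2.19 TPM in KO2 libraries and 21.2, 21.6 and 22.8 TPM in WT libraries, and fell by 1.88 ± 0.34 on the log2 scale (SE, adjusted p = 0.00122). Slc16a3, a lactate exporter, had 67.1, 51.6 and 51.2 TPM in KO1 libraries, 4.49, 4.60 and 25.5 TPM in KO2 libraries and 174, 172 and 113 TPM in WT libraries. Its KO1 level lay between KO2 and WT, and the difference of -1.40 ± 0.44 (SE, adjusted p = 0.0335) passed without WT replicate 3 but with none of the other 5 libraries left out, with values of -1.53 to -1.29 (adjusted p of 0.0542 to 0.0926) there. Slc16a3 was -2.48 (adjusted p = 0.000669) with the macrophage covariate, and did not pass in a fit of the 9 libraries of 6694c2, at -1.40 (adjusted p = 0.113). Clic5 went the other way through KO1 replicate 1, with 16.7, 1.31 and 0.939 TPM in KO1 libraries, against 0.368, 0.371 and 0.373 TPM in WT libraries. Its difference was 1.65 ± 0.56 (SE, adjusted p = 0.0453), against 0.63 (adjusted p = 0.0226) without KO1 replicate 1, and it did not pass without any 1 of the WT libraries, with values of 1.65 to 1.65 (adjusted p of 0.0847 to 0.0894). Clic5 was 1.68 (adjusted p = 0.131) with the macrophage covariate and did not pass, nor did it pass with a pseudocount of 5, with no filter on low values, with quantile normalization, in a fit of the 9 libraries of 6694c2 or in a fit of the 6 libraries compared, at 0.80 to 1.65 (adjusted p of 0.0596 to 0.245).

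**Figure D4:**
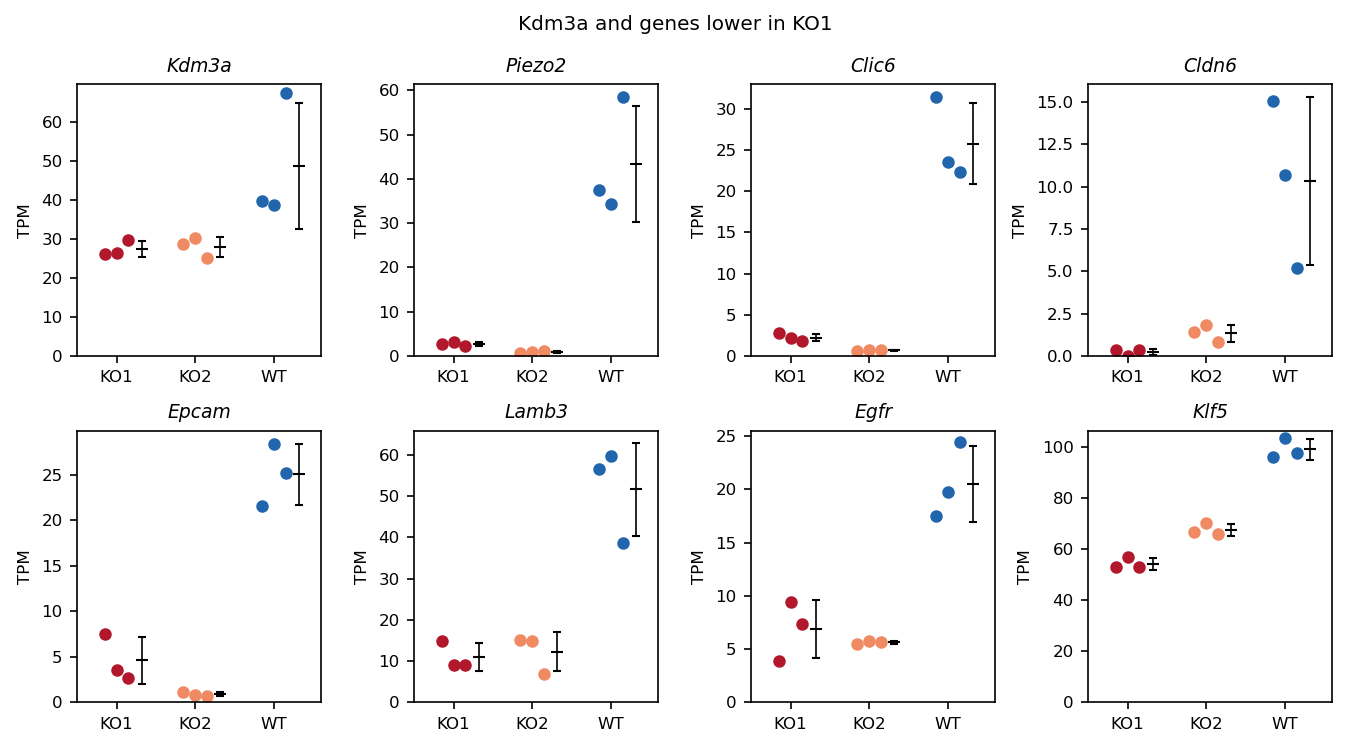
TPM of Kdm3a and 7 genes that fell in KO1 in each library (points, replicates 1 to 3 from left to right) with the mean ± SD of each group beside them (n = 3). Every KO1 library lies below every WT library; Piezo2, Clic6 and Epcam are lower still in KO2, and Klf5 is lowest in KO1.

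Epithelial adhesion genes were lower in KO1. Of 25 tested, 15 fell (7.36% of all tested genes fell) and 1 rose, with a median of -0.55; 9 fell without KO1 replicate 3. Epcam, an adhesion protein of epithelia, had 7.56, 3.61 and 2.74 TPM in KO1 libraries, 1.12, 0.825 and 0.745 TPM in KO2 libraries and 21.6, 28.3 and 25.2 TPM in WT libraries. KO1 replicate 1 was the highest KO1 library and still far below WT, and Epcam fell by 2.29 ± 0.30 on the log2 scale (SE, adjusted p = 9.78e-05). Marveld2, which seals the corners where 3 cells meet, had 2.4997, 1.02 and 1.43 TPM in KO1 libraries, against 6.52, 8.32 and 6.94 TPM in WT libraries, and fell by 1.67 ± 0.20 on the log2 scale (SE, adjusted p = 4.77e-05). Ocln, a tight junction protein, fell by 1.58 ± 0.28 on the log2 scale (SE, adjusted p = 0.00115). Dsp, the desmosomal plaque protein, had 20.2, 11.6 and 10.5 TPM in KO1 libraries, 30.9, 31.5 and 24.8 TPM in KO2 libraries and 31.6, 39.2 and 49.00 TPM in WT libraries, lower in KO1 than in either other group, and fell by 1.47 ± 0.22 on the log2 scale (SE, adjusted p = 0.000305). A protease inhibitor, Spint1, was the member that rose, and 0 members rose without KO1 replicate 1, 2 or 3 or WT replicate 3. Given the macrophage covariate, 0 rose and 10 fell.

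Keratins and laminin genes showed the same direction. Of 8 tested keratins 4 fell and 0 rose (median -0.47), with 2 falls without KO1 replicate 3 and 1 without WT replicate 1. Krt7, a keratin of ducts, had 82.5, 53.3 and 51.5 TPM in KO1 libraries, against 178, 186 and 126 TPM in WT libraries, and fell by 1.39 ± 0.21 on the log2 scale (SE, adjusted p = 0.000328). The list of basal-like and squamous genes held chains of laminin-332, the anchoring laminin of epithelial basement membranes; 5 of its 8 tested genes fell and 2 rose. Lamb3, its beta chain, had 14.9, 8.96 and 9.07 TPM in KO1 libraries, 15.2, 14.8 and 6.97 TPM in KO2 libraries and 56.7, 59.6 and 38.7 TPM in WT libraries. Lamb3 fell by 2.15 ± 0.25 on the log2 scale (SE, adjusted p = 2.68e-05). Lama3, the alpha chain, had 3.22, 1.51 and 1.11 TPM in KO1 libraries, against 8.61, 9.72 and 6.51 TPM in WT libraries, and fell by 1.71 ± 0.22 on the log2 scale (SE, adjusted p = 8.83e-05). Itga6, part of the integrin that binds this laminin, fell by 0.91 ± 0.19 on the log2 scale (SE, adjusted p = 0.00305). The list also held 2 rises, Ly6d and Sprr1a, a cornified envelope protein that had 303, 307 and 342 TPM in KO1 libraries, against 233, 229.8 and 249.7 TPM in WT libraries. Sprr1a rose by 0.42 ± 0.08 on the log2 scale (SE, adjusted p = 0.00189). In the fit with the macrophage covariate 1 keratin fell, and the other list had 4 falls and 1 rise. Itga6 was -0.41 (adjusted p = 0.0526) and Ly6d 0.996 (adjusted p = 0.0746) there, and neither passed; Ly6d also did not pass with a pseudocount of 0.1, at 2.66 (adjusted p = 0.0506).

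Receptors and ligands of the EGFR family were lower, with 5 of 12 tested genes down, 1 up and a median of -0.52; with libraries scaled by median of ratios 8 fell. Egfr had 3.94, 9.38 and 7.38 TPM in KO1 libraries, 5.50, 5.76 and 5.64 TPM in KO2 libraries and 17.5, 19.7 and 24.5 TPM in WT libraries. Egfr fell by 1.501 ± 0.21 on the log2 scale (SE, adjusted p = 0.000202). Areg, a ligand of Egfr, had 12.3, 25.4 and 34.4 TPM in KO1 libraries, 31.3, 29.8 and 15.99 TPM in KO2 libraries and 58.7, 52.2 and 65.4 TPM in WT libraries, with KO1 replicate 1 the lowest library. Areg fell by 1.36 ± 0.33 on the log2 scale (SE, adjusted p = 0.00933). Erbb3, a coreceptor, fell by 1.16 ± 0.20 on the log2 scale (SE, adjusted p = 0.000817). Nrg1, a ligand of Erbb3, rose instead, with 7.33, 9.52 and 9.43 TPM in KO1 libraries, against 2.84, 3.70 and 2.86 TPM in WT libraries and a difference of 1.24 ± 0.18 (SE, adjusted p = 0.000226). Genes that report ERK activity pointed the same way, with 9 of 21 lower, 0 higher and a median of -0.33. Dusp5, a nuclear ERK phosphatase, had 91.8, 93.3 and 93.8 TPM in KO1 libraries, 136, 136 and 96.5 TPM in KO2 libraries and 194, 206 and 199 TPM in WT libraries, and fell by 1.10 ± 0.17 on the log2 scale (SE, adjusted p = 0.000342). Spry2, a feedback inhibitor of receptor kinases, had 36.6, 40.4 and 35.8 TPM in KO1 libraries, against 59.4, 66.05 and 73.02 TPM in WT libraries, and fell by 0.80 ± 0.14 on the log2 scale (SE, adjusted p = 0.00106). With the macrophage covariate 2 EGFR family genes and 3 ERK output genes fell, and Areg, at -0.86 (adjusted p = 0.14), did not pass.

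Of 11 Kruppel-like factors tested, 3 fell and 0 rose (median -0.23); with median-of-ratios scaling 5 fell. Klf5, a factor of proliferating epithelia, had 52.9, 56.9 and 52.8 TPM in KO1 libraries, 66.6, 70.3 and 65.7 TPM in KO2 libraries and 95.9, 104 and 97.6 TPM in WT libraries. The 3 groups were fully separate, with KO1 lowest, and the difference for Klf5 was -0.86 ± 0.081 (SE, adjusted p = 4.7e-06). Klf13 had 46.9, 46.7 and 39.4 TPM in KO1 libraries, against 59.1, 62.7 and 72.4 TPM in WT libraries, and fell by 0.54 ± 0.10 on the log2 scale (SE, adjusted p = 0.00134). Klf9 had a smaller difference of -0.44 ± 0.14 (SE, adjusted p = 0.0314), which did not pass without KO1 replicate 1, KO1 replicate 3 or WT replicate 3, with values of -0.41 to -0.27 (adjusted p of 0.0924 to 0.115). Klf9 was -0.22 (adjusted p = 0.334) with the macrophage covariate, and did not pass in a fit of the 9 libraries of 6694c2 or in a fit of the 6 libraries compared, at -0.44 (adjusted p of 0.0664 to 0.146).

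Genes of classical and gastric-type pancreatic tumors were split, with 11 of 31 lower and 4 higher; 7 fell without KO1 replicate 2 or KO1 replicate 3. Ctse, a gastric protease, had 205, 131 and 138 TPM in KO1 libraries, 308, 299 and 249 TPM in KO2 libraries and 400.2, 327 and 325 TPM in WT libraries. KO1 was lower than both KO2 and WT, and Ctse fell by 1.17 ± 0.16 on the log2 scale (SE, adjusted p = 0.000118). Hnf4a, a factor of endodermal identity, had 71.3, 69.00 and 64.7 TPM in KO1 libraries, 104, 103 and 79.8 TPM in KO2 libraries and 109, 104 and 103 TPM in WT libraries, and fell by 0.62 ± 0.10 on the log2 scale (SE, adjusted p = 0.000574). Of 4 genes that rose, Lyz1, Gkn1, Gkn2 and Ehf, 1 passed without KO1 replicate 1 and 1 without WT replicate 3. Gkn2, a gastrokine, had 64.2, 17.1 and 20.5 TPM in KO1 libraries, 2.79, 3.75 and 65.1 TPM in KO2 libraries and 3.27, 4.91 and 1.26 TPM in WT libraries, a difference of 2.93 ± 0.85 (SE, adjusted p = 0.0223), with values of 2.36 and 2.55 (adjusted p of 0.0744 to 0.0984) without KO1 replicate 1 or WT replicate 3. In the fit with the macrophage covariate 6 of the list fell and 1 rose. Lyz1 at 0.86 (adjusted p = 0.164), Gkn1 at 0.71 (adjusted p = 0.27) and Gkn2 at 0.89 (adjusted p = 0.406) did not pass there, and Hnf4a was -0.41 (adjusted p = 0.0175). Gkn2 also did not pass in a fit of the 9 libraries of 6694c2, at 2.93 (adjusted p = 0.0849).

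Transcripts of epithelial to mesenchymal transition did not move together. Of 19 tested 6 rose and 3 fell, with a median of 0.064 whose sign changed with the scaling, and 1 fell without KO1 replicate 3, WT replicate 2 or WT replicate 3. Tgfbi and Mmp2, which fibroblasts and macrophages also make, rose by 2.33 and 2.15 on the log2 scale. Tgfbi was 0.63 (adjusted p = 0.0971) and Mmp2 1.20 (adjusted p = 0.142) with the macrophage covariate, and neither passed; 3 of the list rose and 1 fell. Twist2, a mesenchymal factor, had 13.8, 11.1 and 13.3 TPM in KO1 libraries, 15.8, 12.6 and 13.4 TPM in KO2 libraries and 5.49, 4.54 and 4.94 TPM in WT libraries, and rose by 1.20 ± 0.22 on the log2 scale (SE, adjusted p = 0.0016). Twist1, its relative, differed in the other direction, with 4.29, 2.07 and 2.21 TPM in KO1 libraries, 0.293, 0.103 and 1.26 TPM in KO2 libraries and 5.03, 6.85 and 5.19 TPM in WT libraries and a difference of -0.83 ± 0.26 (SE, adjusted p = 0.033). Without KO1 replicate 2, KO1 replicate 3, WT replicate 2 or WT replicate 3 it did not pass, with values of -0.88 to -0.69 (adjusted p of 0.0521 to 0.116). Nor did it pass with a pseudocount of 0.1, in a fit of the 9 libraries of 6694c2 or in a fit of the 6 libraries compared, at -1.03 to -0.83 (adjusted p of 0.0913 to 0.15).

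Enzymes of cholesterol and fatty acid synthesis were lower in KO1 than in WT, and part of them lower than in KO2. Of 34 tested, 16 fell and 0 rose, with a median of -0.52; 10 fell without KO1 replicate 3. Hmgcs1, an enzyme of the first steps of cholesterol synthesis, had 53.01, 38.4 and 37.4 TPM in KO1 libraries, 70.7, 74.4 and 64.6 TPM in KO2 libraries and 75.7, 63.8 and 111 TPM in WT libraries. KO1 was lowest without overlap with either group, and Hmgcs1 fell by 0.92 ± 0.21 on the log2 scale (SE, adjusted p = 0.00675). Fdps, which makes farnesyl diphosphate, had 212, 147 and 149.9 TPM in KO1 libraries, 244, 251 and 239 TPM in KO2 libraries and 336, 305 and 247 TPM in WT libraries. The KO1 values were again the lowest, and Fdps fell by 0.81 ± 0.16 on the log2 scale (SE, adjusted p = 0.00193). Given the macrophage covariate, 8 of the 34 fell against WT, and Hmgcs1, at -0.49 (adjusted p = 0.136), did not pass. In the test of KO1 against KO2, 11 of the 34 genes were lower in KO1 (5.44% of all tested genes were) and 0 higher (median -0.49). That count was 3 without KO2 replicate 1 or 2, 4 without KO1 replicate 2 or 3, and 7 without KO2 replicate 3. It was 1 with the macrophage covariate.

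Replication and mitosis genes were lowest in KO1 as well. Against WT, 12 of 40 fell and 0 rose (median -0.26); against KO2, 23 were lower and 0 higher (median -0.65), with 13 lower without KO2 replicate 1 or 2. Ccnb1, a mitotic cyclin, had 18.2, 19.3 and 17.2 TPM in KO1 libraries, 38.6, 38.3 and 28.6 TPM in KO2 libraries and 39.3, 26.3 and 38.7 TPM in WT libraries, and fell by 0.87 ± 0.19 on the log2 scale (SE, adjusted p = 0.00396). Foxm1, a factor that drives mitotic genes, had 30.4, 29.4 and 26.7 TPM in KO1 libraries, 50.1, 48.2 and 43.9 TPM in KO2 libraries and 49.5, 46.5 and 49.1 TPM in WT libraries. All 3 KO1 values were under the values of both other groups, and Foxm1 fell by 0.73 ± 0.10 on the log2 scale (SE, adjusted p = 0.000166). With the macrophage covariate 3 of the 40 fell against WT and 11 were lower than in KO2, and Ccnb1, at -0.48 (adjusted p = 0.0902) against WT, did not pass.

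Among hypoxia response genes, a class to which Kdm3a itself belongs, all changes were falls. Of 32 tested 6 fell (7.36% of all tested genes fell) and 0 rose, with a median of -0.0079. Car9, a carbonic anhydrase that is a standard hypoxia marker, had 132, 95.6 and 92.1 TPM in KO1 libraries, 83.7, 82.3 and 97.5 TPM in KO2 libraries and 208, 233 and 202 TPM in WT libraries. Car9 fell by 1.02 ± 0.14 on the log2 scale (SE, adjusted p = 0.000124). Ak4, an adenylate kinase, had 1.41, 1.64 and 1.22 TPM in KO1 libraries, 0.539, 0.338 and 0.975 TPM in KO2 libraries and 6.15, 5.72 and 6.37 TPM in WT libraries, and fell by 1.55 ± 0.15 on the log2 scale (SE, adjusted p = 6.83e-06). Ndrg1 had 408, 404 and 385 TPM in KO1 libraries, against 560.1, 774 and 727 TPM in WT libraries, and fell by 0.77 ± 0.10 on the log2 scale (SE, adjusted p = 7.07e-05). Glycolytic genes were split, with 3 of 22 higher and 3 lower, and 1 lower without KO1 replicate 1 or 2 and 0 lower without KO1 replicate 3 or WT replicate 2. Ldhb, which favours the use of lactate, had 9.83, 7.28 and 6.67 TPM in KO1 libraries, 0.319, 0.404 and 1.57 TPM in KO2 libraries and 0.400, 0.920 and 0.353 TPM in WT libraries. KO1 was above both other groups, and Ldhb rose by 2.52 ± 0.32 on the log2 scale (SE, adjusted p = 7.94e-05).

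Other signaling lists held changes in both directions, to be read against the 15.6% of all tested genes that rose and the 7.36% that fell. Of 17 Notch pathway genes 4 rose and 4 fell. Jag1 and Jag2, Notch ligands, fell by 1.02 and 1.42, and Nrarp, a Notch target, had 13.4, 10.3 and 11.1 TPM in KO1 libraries, against 29.4, 27.5 and 29.1 TPM in WT libraries. Nrarp fell by 1.24 ± 0.14 on the log2 scale (SE, adjusted p = 3.08e-05). Jag1 was -0.45 (adjusted p = 0.0921) with the macrophage covariate and did not pass, whereas Jag2 was -1.47 (adjusted p = 0.00313); 0 Notch genes rose and 3 fell there. Of 18 YAP targets 8 fell and 1 rose (median -0.39), with 5 falls without KO1 replicate 3. Ptpn14, a regulator and target of YAP, had 3.45, 2.09 and 2.21 TPM in KO1 libraries, against 8.27, 6.89 and 9.71 TPM in WT libraries, and fell by 1.38 ± 0.16 on the log2 scale (SE, adjusted p = 2.44e-05). Of 22 Wnt genes 5 rose and 3 fell, with 2 rises without KO1 replicate 1 or WT replicate 2 and 3 without WT replicate 3. Wnt7a, a secreted ligand, had 2.05, 1.49 and 1.40 TPM in KO1 libraries, 0.370, 0.365 and 0.190 TPM in KO2 libraries and 5.60, 8.30 and 6.61 TPM in WT libraries. Wnt7a fell by 1.56 ± 0.18 on the log2 scale (SE, adjusted p = 3.12e-05). TGF-beta genes, with 4 of 25 in each direction, included Id3, which rose by 2.69 ± 0.36 on the log2 scale (SE, adjusted p = 0.000111). Of 22 immediate early genes 2 rose and 1 fell, with 0 rises without KO1 replicate 1 and 1 without WT replicate 3. Egr3, a zinc finger factor, was the fall: it fell by 1.55 ± 0.21 on the log2 scale (SE, adjusted p = 0.000108). In the fit with the macrophage covariate 1 YAP target fell, 2 Wnt genes rose and 1 fell, and 0 immediate early genes rose.

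Cytosolic ribosomal protein genes held few calls. Of 40 tested 1 rose and 0 fell, with a median of 0.073 that changed sign with the scaling, and with 6 higher without WT replicate 1 and 8 lower without WT replicate 3. Respiratory chain subunits had 7 of 30 higher and 0 lower, with 1 higher without WT replicate 3 and 12 without WT replicate 1. Constitutive proteasome subunits had 6 of 28 higher and 0 lower, with 2 higher without KO1 replicate 3 and 10 without WT replicate 1. Unfolded protein response genes had 2 of 20 higher and 1 lower, with 2 lower without KO1 replicate 2 and 0 lower without KO1 replicate 1, KO1 replicate 3 or WT replicate 3. NRF2-type antioxidant genes had 1 of 19 higher and 3 lower, with 2 higher without WT replicate 1 or WT replicate 2. Targets of p53 with Cdkn2 genes had 4 of 17 higher and 2 lower, with 2 higher without KO1 replicate 1. With the macrophage covariate 0 respiratory chain subunits rose, 0 unfolded protein response genes fell, and 2 p53 and Cdkn2 genes rose and 1 fell.

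Complement genes had 4 of 12 higher and 1 lower, with a median of 0.97. C3, the central component of the cascade, had 212, 249 and 215 TPM in KO1 libraries, 89.04, 85.98 and 161 TPM in KO2 libraries and 29.5, 62.2 and 62.8 TPM in WT libraries. C3 rose by 2.18 ± 0.29 on the log2 scale (SE, adjusted p = 0.000117). Serping1, an inhibitor of the first complement proteases, had 69.1, 25.8 and 28.03 TPM in KO1 libraries, against 5.20, 3.94 and 2.61 TPM in WT libraries, and rose by 2.98 ± 0.43 on the log2 scale (SE, adjusted p = 0.000238). C1s1 and C1ra, proteases of the classical pathway, rose by 2.38 and 1.93 on the log2 scale. All 4 rises passed in each of the 19 alternatives. The lower gene, Clu, an abundant secreted chaperone, had 12082, 14427 and 13945 TPM in KO1 libraries, against 17880.4, 16986 and 16264 TPM in WT libraries. KO1 lay below WT throughout, and the difference was -0.34 ± 0.11 (SE, adjusted p = 0.0421); it passed without WT replicate 3 but with none of the other 5 libraries left out, with values of -0.39 to -0.26 (adjusted p of 0.0515 to 0.18) there. It did not pass with the macrophage covariate, at -0.25 (adjusted p = 0.239), or with no filter on low values, with quantile normalization, in a fit of the 9 libraries of 6694c2 or in a fit of the 6 libraries compared, at -0.34 to -0.056 (adjusted p of 0.114 to 0.784).

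KO1 and KO2 were compared directly to see where KO1 differs from the other clone. The WT libraries do not enter this difference, but they enter the estimate of the spread and the filter on tested genes. A gene high in KO2 alone could therefore be left untested. Of the 13197 genes, 628 (4.76%) were higher and 718 (5.44%) lower in KO1 than in KO2, 10.2% in all. These counts moved with single libraries: without KO2 replicate 3 they were 1106 and 846, without KO2 replicate 1 they were 181 and 192, and without KO2 replicate 2 they were 187 and 189. Of the 2056 genes that rose in KO1 against WT, 407 were higher in KO1 than in KO2, 46 lower and 1603 did not pass. Of the 971 that fell, 298 were lower in KO1, 37 higher and 636 did not pass. KO1 and KO2 share the WT libraries in the comparisons with WT, so a like direction of both clones there is not counted as evidence.

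Guanylate-binding proteins and immunity-related GTPases were lower in KO1 than in KO2 for 8 of 18 genes and higher for 0 (median -0.68), with 4 lower without KO2 replicate 1 or 2 or KO1 replicate 3, and 5 without KO1 replicate 1 or 2. Gbp4 had 14.3, 20.6 and 20.4 TPM in KO1 libraries and 44.7, 47.8 and 40.7 TPM in KO2 libraries. The KO1 values lay well under the KO2 values, a difference of -1.24 ± 0.18 (SE, adjusted p = 0.00143). For Gbp2 the clone difference was -1.05 ± 0.26 (SE, adjusted p = 0.0209), and -1.09 to -0.93 (adjusted p of 0.056 to 0.0788) without KO1 replicate 1, KO1 replicate 3, KO2 replicate 1 or KO2 replicate 2, where it did not pass. Given the macrophage covariate, 3 of the list were lower, and Gbp2, at -1.07 (adjusted p = 0.0907), did not pass. MHC class I genes had a median clone difference of -0.19, and the difference for B2m was -0.25 ± 0.19 (SE, adjusted p = 0.456), with a 95% interval of -0.65 to 0.16. Neutrophil markers were higher in KO1 than in KO2 for 8 of 10 genes and fibroblast markers for 9 of 18, with 0 lower in either list. The filter used KO1 and WT libraries, so markers low in WT entered through KO1 and not through KO2. That favours counts on the higher side here. The fibroblast count was 2 without KO2 replicate 1 or 2, 4 without KO1 replicate 1 or 3, and 14 without KO2 replicate 3. It was 1 with the macrophage covariate, and the neutrophil count was 5. Gzmc, a granzyme, had 6.62, 14.7 and 15.5 TPM in KO1 libraries, 0.782, 0.207 and 1.27 TPM in KO2 libraries and 0.960, 0.692 and 0.542 TPM in WT libraries, a clone difference of 2.89 ± 0.28 (SE, adjusted p = 7.37e-05). Muc5b, a gel-forming mucin, was higher in KO2, with 4.85, 2.67 and 2.71 TPM in KO1 libraries, 16.1, 15.6 and 10.5 TPM in KO2 libraries and 1.17, 0.932 and 1.999 TPM in WT libraries; KO1 minus KO2 was -1.79 ± 0.24 (SE, adjusted p = 0.000854). Apob, a lipoprotein of enterocytes and liver cells, had 2.35, 1.47 and 1.30 TPM in KO1 libraries and 8.43, 9.56 and 5.76 TPM in KO2 libraries, a difference of -1.71 ± 0.46 (SE, adjusted p = 0.0289). Without KO1 replicate 2, KO1 replicate 3, KO2 replicate 1 or KO2 replicate 2 it did not pass, with values of -1.66 to -1.58 (adjusted p of 0.0833 to 0.124). Nor did it pass with the macrophage covariate, at -0.90 (adjusted p = 0.261).

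**Figure D5:**
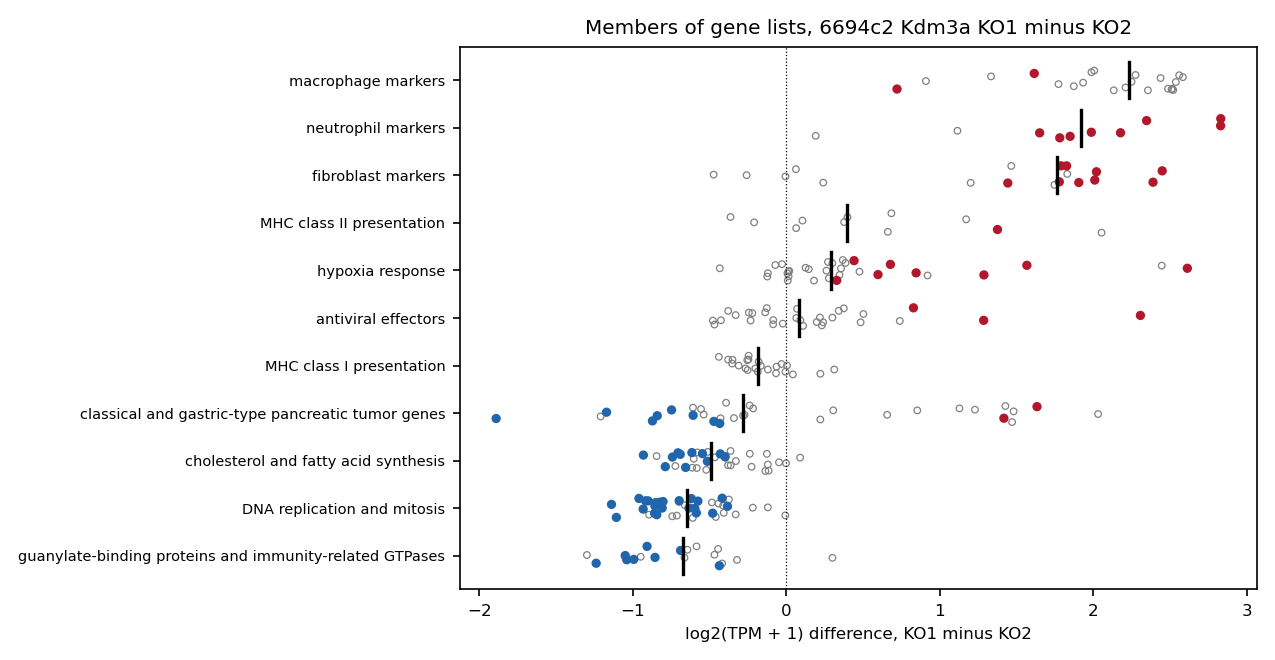
Difference KO1 minus KO2 on log2(TPM + 1) for each tested member of 11 gene lists, with the median as a black bar; red points were higher in KO1, blue points lower in KO1, and open points did not pass the test at an adjusted p of 0.05. Macrophage, neutrophil and fibroblast markers lie to the right, with 2 of 22, 8 of 10 and 9 of 18 passing as higher in KO1. Replication and mitosis, cholesterol and guanylate-binding protein genes lie to the left with medians of −0.65, −0.49 and −0.68.

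The KO1 effect in 6694c2 was also set against the mean knockout effect of both clones in 6419c5. It was higher for 1119 genes (8.48%) and lower for 608 (4.61%), 13.1% in all. Without WT replicate 3 of 6419c5, 701 were higher and 390 lower, and without KO1 replicate 3 of 6694c2, 818 were higher and 382 lower. MHC class II genes had a larger rise in 6694c2 KO1 for 8 of 11 genes and class I genes for 11 of 23. Cd74 averaged 3169 ± 1029 TPM in 6419c5 KO1, 762 ± 369 TPM in 6419c5 KO2 and 453 ± 194 TPM in 6419c5 WT (SD, n = 3 each). The difference of effects for Cd74 was 3.64 ± 0.68 (SE, adjusted p = 0.00374). It was 1.79 (adjusted p = 0.0478) with the macrophage covariate. Guanylate-binding proteins and immunity-related GTPases rose more in 6694c2 KO1 for 7 of 18 genes. Piezo2 averaged 7.85 ± 0.620 TPM in 6419c5 KO1, 10.5 ± 0.195 TPM in 6419c5 KO2 and 7.61 ± 1.68 TPM in 6419c5 WT (SD, n = 3 each), and its difference of effects was -3.80 ± 0.25 (SE, adjusted p = 9.34e-07). Cholesterol and fatty acid genes were lower in this test for 15 of 34 genes, with 7 to 17 lower when 1 library was left out, the fewest without KO1 replicate 3 of 6694c2. Macrophage marker levels differed between the clones of 6419c5 as well. With the macrophage covariate 528 genes were higher and 285 lower, among them 5 class II and 3 class I genes higher and 6 cholesterol and fatty acid genes lower, and Piezo2 was -3.51 (adjusted p = 4.5e-05).

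Rhox5, an X-linked homeobox gene that is silenced in most adult tissues, had the smallest p-value of the comparison and was chosen for that after its values were seen. It lies at chrX:37804842-37808876 on the plus strand and had 156, 159.8 and 167 TPM in KO1 libraries, 75.1, 78.6 and 74.6 TPM in KO2 libraries and 11.3, 10.8 and 7.94 TPM in WT libraries. The 3 groups were separate, with KO1 highest, and Rhox5 rose by 3.89 ± 0.12 on the log2 scale (SE, adjusted p = 1.21e-10). KO1 minus KO2 was 1.07 ± 0.12 (SE, adjusted p = 0.000336). In 6419c5 it averaged 911 ± 142 TPM in KO1, 1001 ± 115 TPM in KO2 and 916 ± 45.96 TPM in WT (SD, n = 3 each), and the difference of effects was 3.84 ± 0.16 (SE, adjusted p = 7.95e-09).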

How the data were processed

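RNA-seq of sorted tumor cells was quantified by the authors in TPM, a length-corrected relative abundance, per gene symbol and deposited as 1 table of 24493 genes and 18 libraries. Per the submitters' processing notes, Salmon and the mm10 build were used; other settings are not given in the sources used here. TPM keep no depth, so no counting error can be given, and the table does not state how reads shared by near copies were split. The columns letter the 2 knockout clones of each line; A was read as KO1 and B as KO2.

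From the deposited TPM, log2(TPM + 1) was computed for the 13197 genes that averaged 1 TPM or more in the 6 libraries compared. limma 3.58.1 (R 4.3.3) was fitted to all 18 libraries with 1 mean per group, empirical Bayes moderation with a mean-variance trend and 12 residual degrees of freedom; p-values were adjusted over all tested genes by the Benjamini-Hochberg method at 0.05. The fit gave KO1 minus WT, KO1 minus KO2 and the KO1 effect minus the mean knockout effect in 6419c5, and it was tested on simulated data. Alternatives were the pseudocount, the filter, 4 scalings, the libraries in the fit, a replicate block, a macrophage covariate, no trend and leaving out each library.

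The 36 pathway and 13 marker lists and the samples compared were chosen with earlier results of these data known. Named genes were Kdm3a, the 15 largest rises and falls without overlap at 5 TPM or more in the higher group (also with marker genes taken out), the 10 largest in TPM, up to 4 called members of each list with described members at no call, and the 5 largest in each direction of the other 2 comparisons that were also called against WT. Outside that rule, 9930111J21Rik1, Ano1, Cd274, Csf2, Ctse, Dsp, Flt1, Gbp2, Gbp4, Hnf4a, Ifnar2, Igtp, Itga6, Lif, Ptges, Rhox5, Sprr1a and Twist1 were chosen after their values were seen. Gene positions are those of GENCODE M21 (GRCm38), which holds 23980 of the 24493 symbols, and promoter windows those of RefSeq on GRCm38.p6.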

Additional observations from a re-analysis of the deposited data

Results flagged for a closer look

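For 25 genes chosen for large changes, the KO1 effect in 6694c2 differed from the mean knockout effect in 6419c5 (limma, adjusted p under 0.05). Some were chosen as the largest among genes that had already passed this same test, so their passing was fixed by that choice. The others were chosen for an extreme KO1 minus WT difference, which is itself part of the tested difference. How many chosen genes did not pass is not given, so the number of 25 does not show how often the lines differ. The values are differences of effects on the log2 scale, in 6694c2 KO1 minus 6419c5.

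Among macrophage and eosinophil-associated genes the difference of effects was 7.0 for Retnla, 5.92 for Ear2, 5.18 for Chil3, 4.32 for Mgl2 and 4.30 for Rnase2a. Among MHC genes it was 4.07 for H2-Aa, 3.95 for H2-Ab1, 3.92 for H2-Eb1, 3.64 for Cd74, 3.10 for H2-Q7 and 2.5 for H2-DMb1. It was 5.29 for Wfdc18, a secreted whey acidic protein family member, and 5.18 for Olfm4, a secreted glycoprotein of crypt epithelium and neutrophils. The 6419c5 term averages both knockout clones of that line, which differed for some of these genes. H2-Q7 averaged 45.1 TPM in 6419c5 KO1, 1.51 TPM in 6419c5 KO2 and 2.73 TPM in 6419c5 WT. For H2-DMb1 these means were 169, 58.2 and 27.5 TPM.

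Genes with a lower effect in 6694c2 KO1 were led by Mir5103 at −3.84, Piezo2 at −3.80 and Ube2e2 at −3.34. The difference was −2.84 for Gm3776, −2.80 for Sall1, −2.57 for Tdrkh, −2.48 for Kctd15, −2.43 for Rab38, −2.36 for Cacna2d1, −2.35 for Cplx2 and −2.16 for Auts2. Sall1 averaged 0.0936 TPM and Cplx2 0.319 TPM in 6419c5 WT, too low for a fall in that line to show. Clic6 had the smallest difference of those listed, −1.14. It fell in 6419c5 as well, averaging 0.257 TPM in KO1, 0.0866 TPM in KO2 and 3.39 TPM in WT. These levels are low, and log2(TPM + 1) understates changes near 0. The value of −1.14 therefore does not show a larger fold change of Clic6 in 6694c2. Macrophage marker levels differ between the groups of both lines. With the mean level of 10 macrophage genes as a covariate all 25 differences kept their sign and 21 passed the test. Those of H2-Ab1 at 1.55 (adjusted p = 0.079), Mgl2 at 1.35 (adjusted p = 0.122), Mir5103 at −3.21 (adjusted p = 0.122) and Cacna2d1 at −1.36 (adjusted p = 0.139) did not. Retnla was 3.69, H2-Aa 1.96, H2-Eb1 1.94, Cd74 1.79 and Ear2 3.59 in that fit, and each passed.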

How the results depend on the processing

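Of 236 named genes, 141 kept their direction and their side of the threshold in all 19 alternatives for KO1 minus WT. C1qb turned to −0.22 and Lgmn, at no call, to −0.26 with the macrophage covariate. Kdm3b, at no call near 0, was −0.12 with median-of-ratios scaling, −0.088 with quantile normalization, −0.083 without the 20 most abundant genes, −0.075 without Mir6236, and −0.017 to 0.10 with 1 library left out. List medians turned sign under a scaling for H3K9, EMT, ribosomal, Wnt, NRF2 and unfolded protein response genes, all near 0.

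Against WT, 2056 genes were higher and 971 lower. Higher genes numbered 1316 at a mean of at least 5 TPM, 1225 with quantile normalization, 1207 with only the 6 libraries compared and 1286 with the macrophage covariate. Lower genes numbered 1673 with median-of-ratios scaling, 2225 with quantile normalization, 1473 without the 20 most abundant genes, 415 with the 6 libraries and 544 with the covariate. The 4 scalings put 35.5% to 52.8% of calls on the higher side, against 67.9% in the reported fit. With 1 library left out, 1332 to 1862 were higher and 616 to 939 lower.

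Against KO2, 354 were higher at 5 TPM, 275 higher and 292 lower with the 9 libraries of 6694c2, and 194 higher and 186 lower with the covariate. With 1 library left out, 181 to 1106 were higher and 189 to 846 lower.

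For the difference from 6419c5, 710 were higher at 5 TPM and 683 with quantile normalization, 1039 were lower with median-of-ratios scaling and 1312 with quantile normalization, and 528 were higher and 285 lower with the covariate. With 1 library left out, 701 to 1112 were higher and 382 to 701 lower. The cause of these shifts was not tested.

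KO1 and WT libraries of the same number had deviations that correlated at 0.012, −0.175 and 0.101. Those of different numbers correlated at −0.213 to 0.228. Whether libraries of the same number were matched cannot be told from these values, and the reported fit did not pair them. With the replicate number as a block, 1685 genes were higher and 808 lower against WT, 413 higher and 449 lower against KO2, and 790 higher and 448 lower in the difference from 6419c5. TPM give no counts, so what depth limits cannot be stated.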

Other observations

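Wfdc18 and Olfm4, which encode secreted proteins and are on none of the lists, were also higher in KO1. Wfdc18, a whey acidic protein family member, had 15.2, 17.8 and 18.9 TPM in KO1 libraries, 3.59, 2.62 and 4.78 TPM in KO2 libraries and 1.19, 0.423 and 1.25 TPM in WT libraries. KO1 was above both other groups and Wfdc18 rose by 3.25 ± 0.39 on the log2 scale (SE, adjusted p = 4.31e-05). Olfm4, a glycoprotein of crypt epithelium and neutrophils, had 6.51, 8.66 and 7.36 TPM in KO1 libraries, 4.24, 4.95 and 0.952 TPM in KO2 libraries and 0.145, 0.398 and 0.537 TPM in WT libraries. Here KO2 replicates 1 and 2 lay between KO1 and WT, and Olfm4 rose by 2.65 ± 0.33 on the log2 scale (SE, adjusted p = 5.47e-05). With the macrophage covariate the differences were 2.78 (limma, adjusted p = 0.00195) for Wfdc18 and 3.08 (limma, adjusted p = 0.000168) for Olfm4.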
